A study of Mus musculus with 8 samples.

Results

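The 10 genes described here mark endothelial cells and the hemogenic endothelium, and their levels were followed in fetal liver LT-HSCs that carried or lacked *IκBα*. They were chosen by name, and their Ensembl IDs in the raw counts were matched to GRCm38 gene symbols, so that 10 of 55487 genes were taken and all 10 were among the 20610 genes left by the filter on low counts. Of these, 4 genes known from the hemogenic endothelium, the SoxF factors *Sox7*, *Sox17* and *Sox18* and the ubiquitin ligase gene *Neurl3*, were set against 6 plain endothelial genes, *Cdh5*, *Kdr*, *Tek*, *Tie1*, *Esam* and *Eng*. The question was whether both groups move together across the samples or apart.

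Bulk RNA-seq was made from LT-HSCs, the hematopoietic stem cells (HSCs) able to repopulate blood over the long term, sorted as LSK CD48-CD150+ cells from mouse fetal liver at E14.5, with 500 cells per sample. The 3 groups were *IκBα* WT (3 samples), HET (3 samples) and KO (2 samples). The supplementary methods name the mouse line as a targeted knockout of *Nfkbia*, the gene of the NF-κB inhibitor IκBα, which is lost in all cells of a KO embryo and not only in HSCs, and heterozygous animals were mated. The samples are described as independent biological replicates, and per the methods RNA came from 3 mice of each genotype, with littermates of different genotypes taken where possible. WT1, WT2 and HET1 came from male embryos and are labelled as total RNA, whereas WT3, HET2, HET3, KO1 and KO2 came from female embryos and are labelled as polyA RNA, so that sex and this label cannot be told apart.

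Blood stem cells arise in the embryo from hemogenic endothelium, a part of the vessel wall that turns off vascular genes as it turns on blood genes. *Sox17* and *Sox7* are transcription factors of arterial and hemogenic endothelium, and *Sox18* is their relative in blood and lymphatic vessels. *Kdr* encodes the main VEGF receptor, *Tek* and *Tie1* the angiopoietin receptor TIE2 and its partner, *Cdh5* and *Esam* adhesion proteins of the endothelial junction, and *Eng* a co-receptor for BMP and TGF-β ligands. Several of them are also known on HSCs, among them *Tek*, *Esam* and *Eng*, and *Eng* is also found on early erythroid precursors.

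Between 17895973 and 21720972 reads were counted per sample, and 3 reads, taken here as the limit that a count of 0 allows, were equal to 0.125 to 0.178 CPM (read counts scaled to a common library size). This limit covers counting error only. Mean levels of *Nfkbia* followed the labels, with 45.5 ± 22.1 CPM in WT (SD, n = 3) and 22.2 ± 7.34 CPM in HET (n = 3). KO1 and KO2 had 1 read and 0 reads. Sample by sample, WT and HET overlapped, since WT3 was at 23.4 CPM, between HET1 at 23.3 CPM and HET2 at 29.0 CPM. WT3 and HET3 stood apart from the other samples. The summed level of 10 HSC markers was 263 CPM in WT3 and 202 CPM in HET3, against 524 to 1747 CPM in the other 6 samples, and 9 of the 10 markers were lowest in HET3 with WT3 next, the exception being *Kit*. Hepatocyte markers went the other way, with 1396 CPM summed over 8 genes in WT3 and 712 CPM in HET3, against 55.3 to 291 CPM elsewhere. The fits, the correlations and the lists are therefore also given without WT3 and HET3. Megakaryocyte markers were lowest in the same samples, at 61.8 CPM in WT3 and 23.3 CPM in HET3 against 107 to 1259 CPM elsewhere, while macrophage markers were highest in WT3 (198 CPM) but at 52.7 CPM in HET3 within the 8.47 to 97.2 CPM of the others. The LSK CD48-CD150+ gate of the sort is meant to leave other cell types out. RNA of *Cd48*, the marker gated against, was at 45.8 to 89.1 CPM in the samples. The part of these cell types in the members' levels was not tested.

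Promoters of 5 of the 10 genes (*Neurl3*, *Kdr*, *Tek*, *Tie1* and *Eng*) were found in a RefSeq table for GRCm38.p6, each spanning 250 bases before to 50 bases after a RefSeq transcription start. *Neurl3* and *Kdr* are shown first because each holds 1 match to the NF-κB consensus, the motif of the factors that IκBα holds back. The sequences run 5′ to 3′ on the strand of the gene, and the match is in capitals. The window of *Neurl3* is chr1:36273376-36273675 (minus strand) and that of *Kdr* chr5:75978406-75978705 (minus strand).
Neurl3: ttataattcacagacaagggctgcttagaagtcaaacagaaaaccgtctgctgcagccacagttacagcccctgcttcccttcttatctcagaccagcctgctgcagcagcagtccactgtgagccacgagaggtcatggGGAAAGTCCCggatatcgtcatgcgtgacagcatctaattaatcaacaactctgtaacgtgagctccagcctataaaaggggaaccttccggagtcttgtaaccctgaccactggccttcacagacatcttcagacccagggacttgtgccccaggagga
Kdr: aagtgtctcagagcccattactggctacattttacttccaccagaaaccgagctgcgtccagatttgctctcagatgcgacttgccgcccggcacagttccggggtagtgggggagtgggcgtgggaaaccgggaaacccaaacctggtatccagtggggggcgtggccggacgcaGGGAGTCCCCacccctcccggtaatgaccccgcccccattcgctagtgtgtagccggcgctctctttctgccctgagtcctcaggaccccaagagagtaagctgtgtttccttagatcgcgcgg

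The match began 110 bases before the start in *Neurl3* and 74 bases before it in *Kdr*. On both strands, 4.51% of 32851 promoters of this length held such a match, and *Tek*, *Tie1* and *Eng* held none. *Tie1* and *Tek*, which encode partner receptors, are shown with the ETS core GGAA (either strand) in capitals, the core motif of the ETS factors that act in endothelial and blood cells. The window of *Tie1* is chr4:118489800-118490099 (minus strand) and that of *Tek* chr4:94739039-94739338 (plus strand).
Tie1: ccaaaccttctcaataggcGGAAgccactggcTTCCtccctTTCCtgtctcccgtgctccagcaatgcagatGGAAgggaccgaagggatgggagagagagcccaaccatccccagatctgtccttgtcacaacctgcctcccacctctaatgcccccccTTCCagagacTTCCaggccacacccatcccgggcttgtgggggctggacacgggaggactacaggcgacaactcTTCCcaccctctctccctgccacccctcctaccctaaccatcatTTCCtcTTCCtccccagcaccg
Tek: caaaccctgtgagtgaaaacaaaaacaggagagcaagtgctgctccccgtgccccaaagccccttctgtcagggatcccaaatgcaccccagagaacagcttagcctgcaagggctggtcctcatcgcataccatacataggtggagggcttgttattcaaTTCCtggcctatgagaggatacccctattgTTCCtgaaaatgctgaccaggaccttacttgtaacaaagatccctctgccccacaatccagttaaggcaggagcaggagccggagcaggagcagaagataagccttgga

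*Tie1* held 9 ETS cores, a number reached by 1.59% of all promoters, *Kdr* held 5, *Neurl3* and *Eng* held 4 each and *Tek* held 2. At least 1 such core was found in 96.0% of all promoters, with a median of 3. The SOX core ACAAT, on either strand, was found 2 times in *Tek* and not in the other 4 windows, and 31.0% of all promoters held it. The GATA motif GATAA was found once each in *Neurl3* and *Tek* (25.4% of all promoters) and the RUNX motif TGNGGT once each in *Eng*, *Kdr* and *Tek* (45.8%). Each motif was counted on its own, also where motifs overlap, and the NF-κB match in *Neurl3* holds an ETS core. The matches describe the letters in these windows and no binding was measured here.

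Of the SoxF factors, *Sox18* was above the counting limit in every sample, whereas *Sox7* and *Sox17* were above it in some samples and had 0 reads in others. *Sox7* (ENSMUSG00000063060, chr14:63943673-63950732) had 26 reads in WT1, 10 in WT2 and 12 in KO1, and 0 reads in the other 5 samples, the 3 HET samples included. *Sox17* (ENSMUSG00000025902, chr1:4490931-4497354) had 11, 69 and 0 reads in WT1, WT2 and WT3, 4, 21 and 0 in HET1, HET2 and HET3, and 1 and 0 in KO1 and KO2. *Sox7* was thus detected in WT1, KO1 and WT2, and *Sox17* mainly in WT2, HET2 and WT1, while both had 0 reads in WT3, HET3 and KO2. The exons of *Sox17* overlap those of the antisense gene *Gm37587*, to which 3 reads were assigned in all.

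*Sox18* (ENSMUSG00000046470, chr2:181669836-181671640) was at 92.0, 72.8 and 4.11 CPM in WT1, WT2 and WT3, at 22.0, 13 and 1.25 CPM in HET1, HET2 and HET3, and at 51.8 and 41.7 CPM in KO1 and KO2. *Neurl3* (ENSMUSG00000047180, chr1:36264597-36274679), which encodes an E3 ubiquitin ligase, was at 109, 122 and 8.49 CPM in WT, at 33.0, 16.6 and 1.66 CPM in HET and at 105 and 65.2 CPM in KO. Both genes were high in WT1, WT2 and the KO samples, intermediate in HET1 and HET2, and low in WT3 and HET3. The KO values lay between those of the WT samples for each gene, and the ratio of *Neurl3* to *Sox18* stayed between 1.19 and 2.06 in all 8 samples, while *Sox18* spanned 73.9-fold and *Neurl3* 73.7-fold.

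Among the receptor genes, *Tek* (ENSMUSG00000006386, chr4:94739289-94874976) was at 66.5, 67.1 and 1.93 CPM in WT, at 18.1, 14.6 and 0.593 CPM in HET and at 71.9 and 31.7 CPM in KO. *Tie1* (ENSMUSG00000033191, chr4:118471191-118490061) was at 62.1, 62.2 and 2.92 CPM in WT, at 21.9, 17 and 0.119 CPM in HET and at 55.0 and 51.1 CPM in KO. These angiopoietin receptor genes were again highest in WT1, WT2 and the KO samples and lowest in WT3 and HET3, and HET3 had only 2 reads of *Tie1*. *Kdr* (ENSMUSG00000062960, chr5:75932827-75978458) was an order of magnitude lower, with 4.77, 6.56 and 0.0521 CPM in WT, 0.585, 1.41 and 0 CPM in HET and 4.99 and 2.61 CPM in KO. WT3 held 1 read of *Kdr* and HET3 held none, while WT1, WT2 and both KO samples held 53 to 157 reads.

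*Eng* (ENSMUSG00000026814, chr2:32646595-32682669) varied least of the abundant members, from 15.0 to 104 CPM or 6.90-fold. It was at 104, 90.5 and 22.2 CPM in WT, at 39.7, 30.9 and 15.0 CPM in HET and at 101 and 65.4 CPM in KO. The exons of *Eng* overlap those of the antisense gene *Fpgs*, to which 14112 reads were assigned, and since the strand setting of the counting is not given in the sources used here, reads of both genes cannot be told apart where they overlap.

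Of the junction genes, *Esam* (ENSMUSG00000001946, chr9:37528078-37538319) was the highest member. It was at 252, 232 and 12.6 CPM in WT, at 72.1, 66.8 and 1.90 CPM in HET and at 214 and 129 CPM in KO, again with WT3 and HET3 lowest. *Cdh5* (ENSMUSG00000031871, chr8:104101625-104144511), which encodes VE-cadherin, was far lower, with 3.37, 6.77 and 1.93 CPM in WT, 1.70, 1.46 and 0.119 CPM in HET and 3.28 and 1.48 CPM in KO. It was the only member whose 3 HET values all lay under the 3 WT values. In these bulk samples, fewer cells of a type and less RNA per cell cannot be told apart, for *Cdh5* as for every other member.

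**Figure D1:**
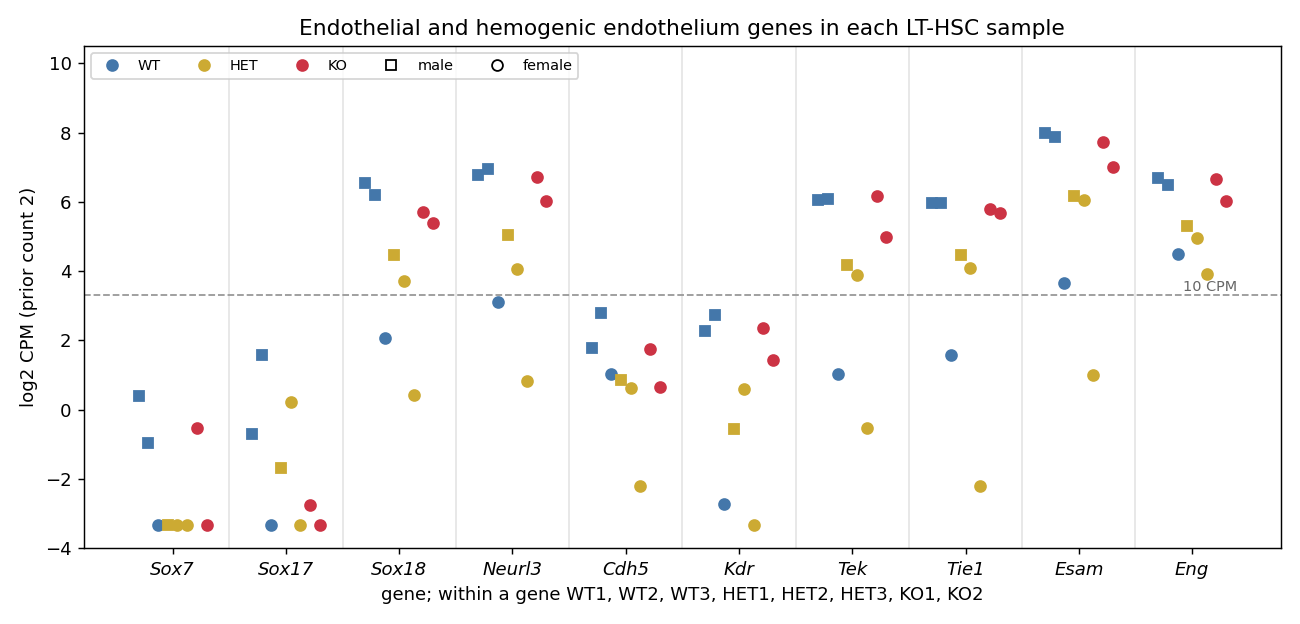
Level of each of the 10 genes in each sample as log2 CPM with a prior count of 2, colored by genotype, with squares for male and circles for female samples. For Sox18, Neurl3, Tek, Tie1, Esam and Eng, as well as Kdr, WT1, WT2, KO1 and KO2 are the highest 4 samples and WT3 and HET3 the lowest, and Sox7 and Sox17 have 0 reads in 5 and 3 of the 8 samples.

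Per kilobase of exon, the mean level over the 8 samples was 42.7 CPM per kb for *Esam*, 23.0 for *Sox18* and 17.9 for *Neurl3*, followed by *Eng* (3.71 to 25.6 over the samples), *Tek* at 7.23 and *Tie1* at 6.92. *Cdh5* at 0.598, *Kdr* at 0.290, *Sox17* at 0.124 and *Sox7* at 0.0842 CPM per kb formed the low end. The hemogenic regulators thus stood at both ends of this order of levels. Neighbors in it overlapped widely between samples, for example *Sox18* at 0.769 to 56.8 and *Neurl3* at 0.516 to 38.1 CPM per kb. Divided by abundance, 6 members had a mean of at least 10 CPM (*Sox18*, *Neurl3*, *Tek*, *Tie1*, *Esam* and *Eng*) and 4 a lower one (*Sox7*, *Sox17*, *Cdh5* and *Kdr*).

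The abundant members moved together across samples, whether hemogenic or plain. Over the 8 samples, the Pearson correlation of log2 CPM among the 6 abundant members had a median of 0.97 and a range of 0.91 to 0.99 (15 pairs), and Spearman's rho a median of 0.98. *Sox18* and *Neurl3* with the 4 abundant plain genes gave a median of 0.97 (0.97 to 0.99, 8 pairs), and these plain genes among themselves gave 0.96 (0.91 to 0.99, 6 pairs). The pairs across the groups were therefore as alike as the pairs within the plain group.

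The groups as named looked less alike only through their scarce members. Within *Sox7*, *Sox17*, *Sox18* and *Neurl3* the median r was 0.59 (0.40 to 0.99, 6 pairs), within the plain genes 0.94 (0.78 to 0.99, 15 pairs) and between the groups 0.82 (0.40 to 0.99, 24 pairs). The pairs that held a member under 10 CPM had a median of 0.70 (0.40 to 0.98, 30 pairs), and the low end was set by *Sox17* and *Sox7*, whose counts were 0 in 3 and 5 of the 8 samples. *Sox18* and *Neurl3* with each other reached 0.99. Without WT3 and HET3, the samples farthest from the median, the abundant members still gave a median of 0.97 (0.94 to 0.99, 6 samples), and with the male-female difference removed it was 0.97 (0.88 to 0.99). These correlations describe 8 samples that share their libraries and depth across genes.

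**Figure D2:**
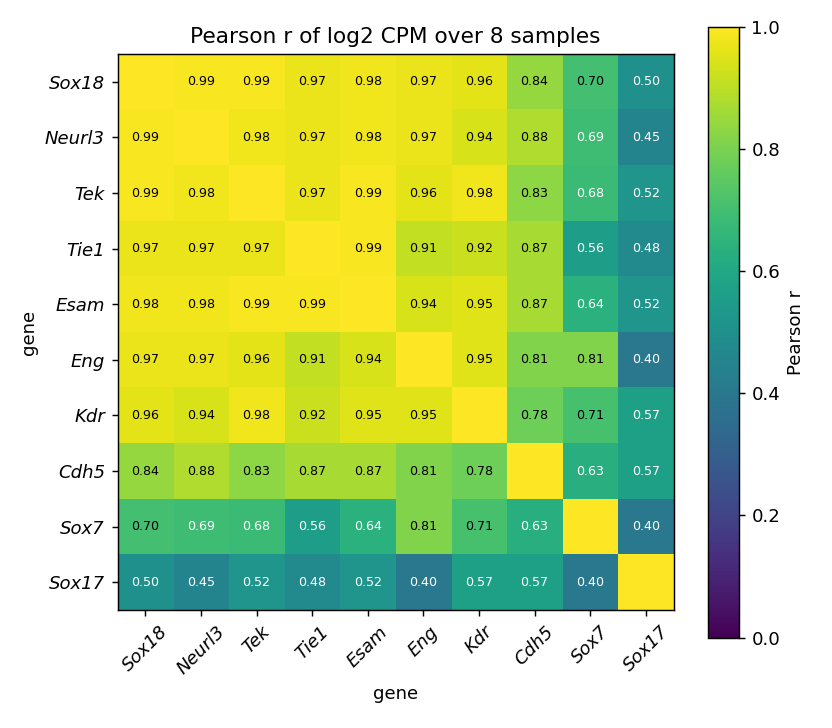
Pearson correlation of log2 CPM over the 8 samples for each pair of the 10 genes, with rows and columns in the same order and 1 on the diagonal. The 6 abundant genes give 0.91 to 0.99 with one another, and Sox17 gives 0.40 to 0.57 with every other gene.

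Such likeness was common among genes in these samples. Of 20610 genes, 10.6% had an r of at least 0.9 with the mean profile of the 10 members. For the 4 hemogenic regulators, the closest of 12854 other genes with a mean of at least 1 CPM were *Atp6v0d1* and *Stoml1* (both r = 0.991), *Lrrc8a* (0.990), and *Irf9* and *Ebpl* (both 0.989), and 13.9% of these genes reached 0.9. For the 6 plain genes they were *Hlf* and *Dhx58* (both 0.999), *Hmgn3* and *Rhoc* (both 0.998) and *Gucy1a1* (0.997), and 15.2% reached 0.9. *Hlf* is a transcription factor of HSCs and was among the 10 HSC markers. Without WT3 and HET3 (6 samples), 8.71% of all genes reached 0.9 with the 10 members, 5.58% of the other genes with the regulators and 14.3% with the plain genes, and the genes just named gave 0.97 to 1.0 but were no longer all the closest.

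The abundant members followed these HSC markers closely. With the mean log2 CPM of the 10 markers, *Esam* gave r = 1.0 over the 8 samples, *Sox18*, *Neurl3*, *Tek* and *Tie1* each 0.99, and *Eng* and *Kdr* each 0.95. *Cdh5* gave 0.89, *Sox7* 0.65 and *Sox17* 0.51. Without WT3 and HET3 (6 samples), the 6 abundant members gave 0.97 to 0.99, *Kdr* 0.90, *Sox7* 0.85, *Cdh5* 0.83 and *Sox17* 0.08.

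**Figure D3:**
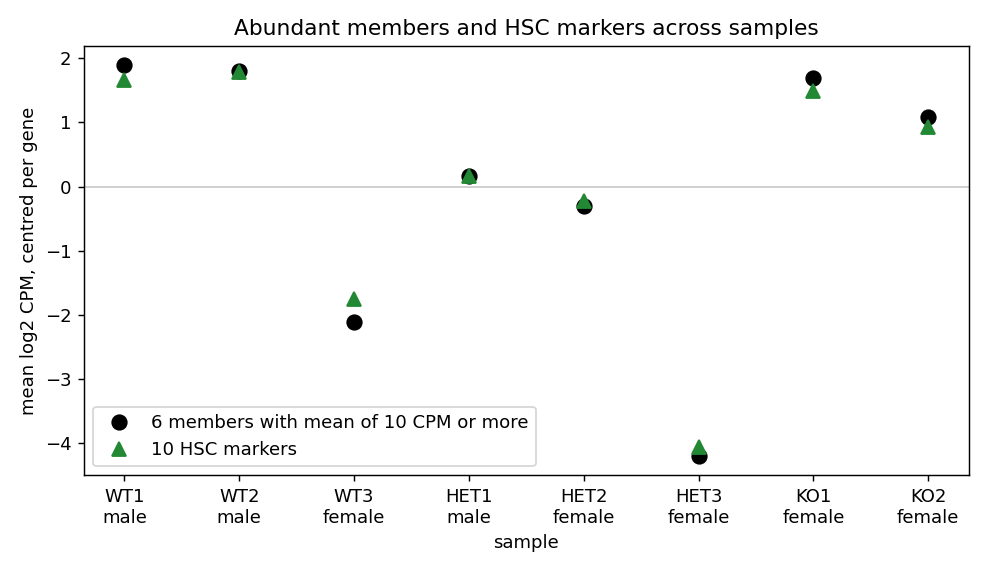
Mean log2 CPM in each sample, centred per gene, of the 6 members with a mean of at least 10 CPM (circles) and of the 10 HSC markers (triangles). Both are highest in WT1, WT2 and KO1 and lowest in HET3, with WT3 next.

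Other endothelial markers gave a mixed picture. The summed level of 10 of them was 215, 239 and 30.5 CPM in WT, 78.8, 75.0 and 33.0 CPM in HET and 178 and 117 CPM in KO. Outside WT3 and HET3 much of it came from *Emcn*, *Robo4* and *Ecscr*, of which at least *Emcn* and *Robo4* are also known on HSCs. In WT3 and HET3 *Plvap* was the largest part, at 17.6 and 31.0 CPM. *Emcn*, which encodes a sialomucin of capillaries and veins, was at 85.7, 70.9 and 4.17 CPM in WT, 31.4, 21.5 and 0.237 CPM in HET and 73.3 and 38.0 CPM in KO. Like the members, it was lowest in WT3 and HET3. *Plvap*, a marker of fenestrated endothelium, was instead at 15.2 to 31.0 CPM and highest in HET3, and *Sele* had 0 reads in every sample. The 8 markers of the liver sinusoid summed to only 5.04 to 11.9 CPM, with overlap between all groups and *Gata4* at 3 reads or fewer in every sample. Their sum hid opposite patterns, since *Clec4g* was at 9.45, 6.77 and 0 CPM in WT, 2.87, 1.92 and 0 CPM in HET and 5.77 and 5.70 CPM in KO, like the members, whereas *Stab2* was highest in WT3 at 4.01 CPM and *Dnase1l3* in HET3 at 1.66 CPM. The defining endothelial markers *Kdr* and *Cdh5* reached no more than 6.56 and 6.77 CPM, whereas *Esam* reached 252 CPM.

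KO cells were then compared with WT and HET cells pooled, with sex in the model, which asks what the loss of IκBα does to these genes. Levels of the abundant members had higher means in KO, but no KO pair stood above all other samples. *Sox18* was at 46.7 ± 7.16 CPM in KO (SD, n = 2) and 34.2 ± 38.5 CPM in WT/HET (n = 6), *Neurl3* at 84.9 ± 27.8 and 48.6 ± 53.3 CPM, and *Esam* at 172 ± 60.3 and 106 ± 109 CPM. *Tek* was at 51.8 ± 28.4 and 28.1 ± 30.7 CPM, *Tie1* at 53.1 ± 2.73 and 27.7 ± 27.9 CPM, and *Eng* at 83.3 ± 25.3 and 50.3 ± 37.4 CPM. These differences were smaller than the spread of the WT/HET samples. KO1 and KO2 exceeded every WT and HET sample for 0 of the 10 members and for 3.05% of all genes, and two-sided exact permutation tests on the log2 CPM values gave p-values of 0.286 to 1.0 (n = 2 and 6; the smallest possible is 0.0714).

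In the edgeR fit, 0 of 10 members passed an adjusted p-value of 0.05 with a log2 fold change over 1, where 0% of all genes were called. At an unadjusted p-value under 0.05, 5196 genes passed, and DESeq2 with apeglm called 1463. The 6 abundant members were higher in KO at this unadjusted level, and 15.7% of all genes were. The fitted log2 fold change was 3.25 (SE 0.819, edgeR adjusted p = 0.148) for *Neurl3*, 2.92 (SE 0.848, adjusted p = 0.151) for *Sox18* and 1.87 (SE 0.433, adjusted p = 0.148) for *Eng*. It was 3.18 (SE 1.10) for *Tek*, 2.99 (SE 1.19) for *Tie1* and 2.66 (SE 1.10) for *Esam*, with edgeR adjusted p-values of 0.156 to 0.183. *Kdr* at 2.93 (SE 1.48) and *Cdh5* at 1.01 (SE 0.982) did not pass at the unadjusted level. The median over the 10 members was 2.93, against 0.13 over all genes. It was 2.79 for the 6 plain genes. Among the 4 hemogenic regulators, *Sox18* and *Neurl3* were higher at the unadjusted level. The fits gave 5.59 (SE 2.71) for *Sox7* and -3.56 (SE 2.43) for *Sox17*, neither past that level and both resting on few reads. *Sox7* had 12 reads in KO1 and 0 in KO2 and every female reference sample, and its value was 0.00 without KO1. That of *Sox17* turned to 2.31 without HET2, so that no direction is read from either gene. DESeq2 with apeglm called 3 members higher, where 6.50% of all genes were. They were *Sox18* at 2.38 (adjusted p = 0.0123), *Neurl3* at 2.81 (adjusted p = 0.00384) and *Eng* at 1.60 (adjusted p = 0.00663), and for *Tek* and *Tie1* DESeq2 gave no p-value.

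The fitted change depended on which samples KO was set against. Both KO samples are female, so that with sex in the model the fitted change rests on the female reference samples. Against the 3 female WT/HET samples both lay higher for 7 of the 10 members (*Sox18*, *Neurl3*, *Kdr*, *Tek*, *Tie1*, *Esam* and *Eng*), as they did for 27.1% of all genes, with log2 differences of 1.90 to 4.57 (exact permutation p = 0.200, the smallest possible for n = 2 and 3). Against the 3 male WT/HET samples the same 7 genes differed by -0.19 to 0.40 on the log2 scale and overlapped. Only *Sox17* lay outside the male samples, with 1 and 0 reads in KO below the 11, 69 and 4 reads there, as for 5.98% of all genes. At these counts the fitted size of its difference cannot be relied on. Without a sex term the median log2 fold change of the members was 0.71 and no member passed at the unadjusted level.

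WT3 and HET3 are 2 of the 3 female reference samples. Without them, the median over the members was 1.51, and *Neurl3* at 2.32 (SE 0.809, edgeR adjusted p = 0.682) and *Tie1* at 1.62 (SE 0.643, adjusted p = 0.682) were higher at the unadjusted level, as 4.07% of all genes were. *Sox17* also passed that level, in the lower direction, but on 1 and 0 reads in KO. No member was called, and KO was then set in effect against HET2 alone, the only female reference left. Without HET2, on the other hand, *Sox18*, *Neurl3*, *Tek*, *Tie1* and *Esam* were called higher, as 3.49% of all genes were, and the median was 4.34.

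The authors' table of sex-corrected log2 values gave another order of samples. In it, both KO samples lay above all 6 WT/HET samples for 7 of the 10 members, the same genes that were higher than in the female samples, and for 19.3% of all genes. *Sox18*, for example, was listed at 11.24 and 10.99 in KO and at 8.50 to 10.11 in WT/HET. The uncorrected CPM values of WT1 and WT2 were above those of KO2 for all of these genes.

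**Figure D4:**
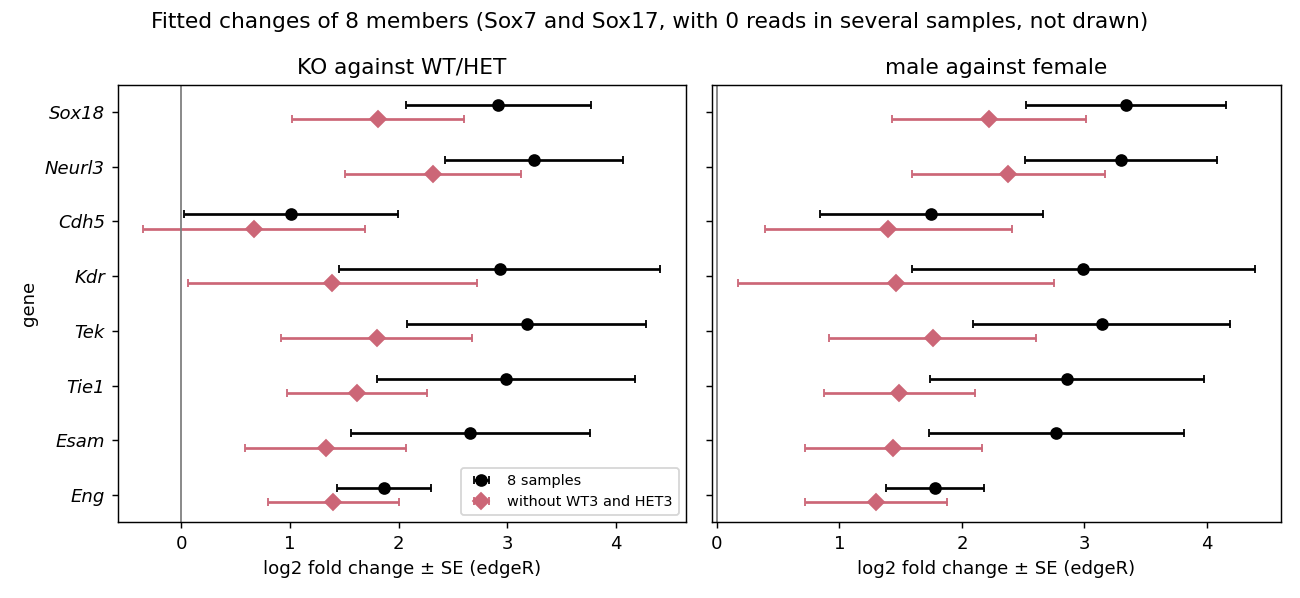
Fitted log2 fold change with its SE (edgeR) of 8 members, KO against WT/HET on the left and male against female on the right, with all 8 samples (black circles) and without WT3 and HET3 (red diamonds). The 8 genes drawn lie above 0 in both comparisons. Sox17, not drawn, was at -3.56 in KO against WT/HET, a value that rests on 1 and 0 reads in KO. Leaving out WT3 and HET3 moves the median over the 10 members from 2.93 to 1.51 for KO against WT/HET.

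Relative to the HSC markers of the same sample, most of the movement of 5 of the 6 abundant members was gone, the exception being *Eng*. Taken as log2 CPM minus the mean log2 CPM of the 10 HSC markers, *Sox18* ranged over 1.03 and *Neurl3* over 0.94 on the log2 scale across the 8 samples, against 6.10 and 6.12 in plain log2 CPM. *Esam* ranged over 1.25 against 6.98, *Tek* over 1.91 against 6.70 and *Tie1* over 2.88 against 8.16, but *Eng* over 3.27 against 2.78. On this scale KO minus WT/HET was 0.02 for *Sox18*, 0.30 for *Neurl3*, 0.31 for *Esam*, 0.52 for *Tek*, 0.80 for *Tie1* and -0.58 for *Eng* (exact permutation p = 0.214 to 1.0, n = 2 and 6). Of the scarce members, *Cdh5* was at -1.23, *Kdr* at 0.44 and *Sox7*, on few reads, at -1.24 (exact permutation p = 0.143, 0.786 and 0.357). *Sox17* was at -3.45 with both KO samples below all others (exact permutation p = 0.0714, the smallest possible for n = 2 and 6), but it had 1 and 0 reads in KO, so that this value rests on the prior count.

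*Eng* behaved differently from *Sox18* and *Neurl3* on this scale. It stood 2.75 above the HSC markers in HET3 and 1.01 above them in WT3, and between -0.52 and -0.06 in the other 6 samples. *Cdh5* was likewise nearest to the markers in WT3 (-2.46) and HET3 (-3.37), against -5.51 to -4.24 elsewhere, but HET3 held only 2 reads of it. WT3 and HET3 were also the samples with the most hepatocyte marker RNA, at 1396 and 712 CPM, and the part of other cell types in the levels of *Eng* and *Cdh5* was not tested. The part of *Fpgs* reads in the level of *Eng*, given the overlap of their exons, was not tested either. Erythroid markers summed to 2485 and 2725 CPM in WT3 and HET3, within the range of 346 to 10836 CPM of the other samples, a sum led by the globin genes in HET1. Of these markers, *Klf1*, a transcription factor of erythroid precursors, was highest in HET3 and WT3 (1227 and 1040 CPM, against 36.2 to 941 CPM elsewhere), and *Epor*, the erythropoietin receptor gene, was highest in HET3 at 265 CPM and at 190 CPM in WT3, against 43.6 to 203 CPM elsewhere.

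**Figure D5:**
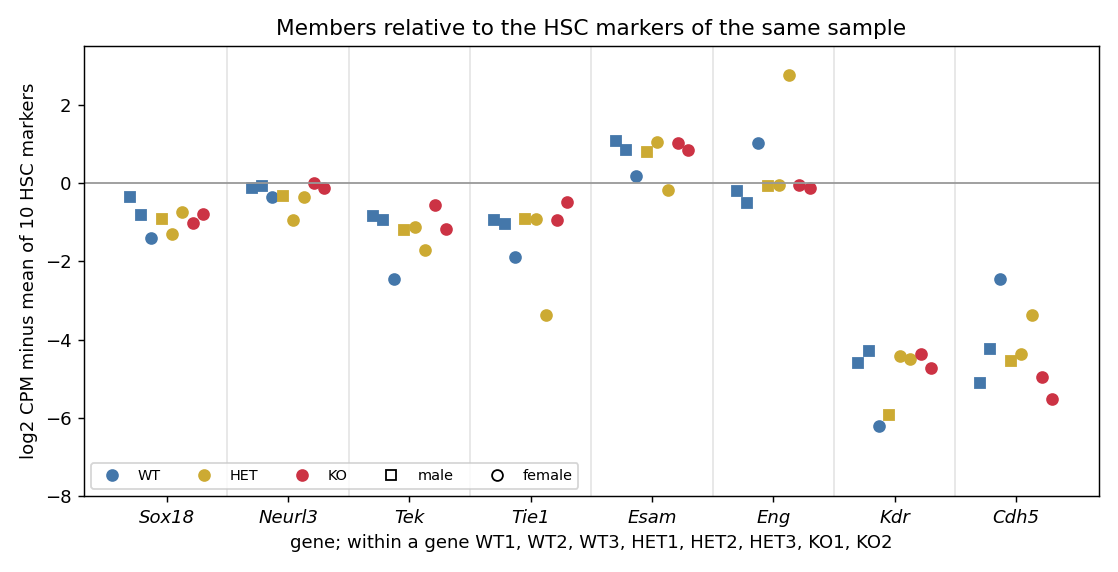
log2 CPM of 8 members minus the mean log2 CPM of the 10 HSC markers in the same sample, colored by genotype, with squares for male and circles for female samples. Sox18 and Neurl3 range over 1.03 and 0.94, with both KO samples among the others for Sox18 and KO1 highest for Neurl3 (-0.01, against -0.08 in WT2), whereas Eng stands at 2.75 in HET3 and 1.01 in WT3.

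Male and female samples were compared in the same model, where the coefficient rests on WT and HET and also covers the difference in the molecule label. Among WT and HET, the 3 male samples lay above the 3 female samples for 6 members, namely *Sox18*, *Neurl3*, *Tek*, *Tie1*, *Esam* and *Eng* (exact permutation p = 0.1, the smallest possible for n = 3 and 3), and for 21.1% of all genes. Their log2 differences were 1.72 to 4.30. None of the 10 members was called by edgeR, where 0.0194% of all genes were, and 7 members were higher in male samples at the unadjusted level, as were 18.9% of all genes. The fitted log2 fold change was 3.34 (SE 0.818) for *Sox18*, 3.30 (SE 0.783) for *Neurl3* and 1.78 (SE 0.402) for *Eng*, each with an edgeR adjusted p of 0.0895. The median over the members was 2.93 and 1.47 without WT3 and HET3, which leaves HET2 as the only female sample among WT and HET. With the replicate number as a block, the median was 1.69 and 0 members passed at the unadjusted level. The HSC markers differed in the same way, with 600 to 1747 CPM in male and 202 to 524 CPM in female WT/HET samples. Relative to them, male minus female was -1.50 for *Eng* and 0.38 for *Neurl3* (exact permutation p = 0.1 each, the smallest possible for n = 3 and 3). *Eng*, higher in male samples in CPM, was thus lower in them on this scale, but the size of this difference rests on WT3 (1.01) and HET3 (2.75). HET2, the other female sample, was at -0.06, against -0.20, -0.52 and -0.07 in WT1, WT2 and HET1. Male minus female was -1.23 for *Cdh5*, 1.08 for *Tie1*, 0.77 for *Tek*, 0.54 for *Esam*, 0.44 for *Sox18* and 0.09 for *Kdr* (exact permutation p = 0.2 to 0.7).

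HET cells were compared with WT cells over these 6 samples to ask whether 1 lost copy of *IκBα* moved the genes. Mean levels of all 10 members were lower in HET, but without pairing no difference passed the test. *Sox18* was at 12.1 ± 10.4 CPM in HET and 56.3 ± 46.2 CPM in WT (SD, n = 3 each), *Neurl3* at 17.1 ± 15.7 and 80.1 ± 62.3 CPM, and *Esam* at 46.9 ± 39.1 and 165 ± 133 CPM, so that the differences were about as large as the SD of WT. Samples of the same number were also set side by side, although the sources used here do not state that the number marks a pair. HET was then lower in 3 of 3 pairs for 8 members, all but *Sox7* and *Sox17* (0 reads in both WT3 and HET3), as it was for 21.4% of all genes. WT2 is male and HET2 female, so that genotype cannot be told apart from sex and molecule label in that pair. In the edgeR fit 0 of 10 members were called, where 0% of all genes were, and 0 members passed at an unadjusted p-value under 0.05, at which 1.83% of all genes were lower in HET. At that level 747 genes passed in either direction, and DESeq2 called 64. The median log2 fold change of the members was -0.50. It was 1.12 without HET1 and -2.05 without HET2. In the fit without HET2, 4 members were called lower in HET, as were 131 of 20554 genes. *Cdh5*, at 1.09 ± 0.853 CPM in HET and 4.02 ± 2.49 CPM in WT, was lower in 3 of 3 HET samples than in any WT sample (exact permutation p = 0.1, the smallest possible for n = 3 and 3), as were 4.85% of all genes.

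This comparison also rested on WT3 and HET3. Without them HET2 is the only female sample and takes up the sex term, so that HET1 alone is set against WT1 and WT2 and is assumed to vary like them. In that fit, with 1 residual degree of freedom, 7 members were called lower in HET1 (*Sox18*, *Neurl3*, *Kdr*, *Tek*, *Tie1*, *Esam* and *Eng*), as were 6.32% of all genes. With the replicate number as a block, the median was -2.08 and 7 members were lower at the unadjusted level, as were 4.39% of all genes, with 0 members called. Relative to the HSC markers, HET minus WT went both ways, from -0.44 for *Tie1*, -0.35 for *Neurl3*, -0.16 for *Cdh5*, -0.15 for *Esam* and -0.12 for *Sox18* to 0.07 for *Tek*, 0.08 for *Kdr* and 0.78 for *Eng* (exact permutation p = 0.3 to 1.0, n = 3 and 3). This test does not use the sample numbers. With samples of the same number set side by side, *Eng* was higher in HET each time, at -0.07, -0.06 and 2.75 against -0.20, -0.52 and 1.01 in WT.

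Genes of the same pathways were then examined as lists, chosen by function and without the members. The lists are not independent, since some genes are shared between them. The other endothelial and sinusoidal markers given above are also in the lists of endothelial identity and of sinusoidal genes. None of their genes was called by edgeR in KO against WT/HET, where 0% of all genes were, so that the counts here are at the unadjusted level, at which 15.7% of all genes were higher and 9.48% lower in KO. Of 24 genes of endothelial identity, 11 were higher and 1, *Podxl*, lower in KO, with a median log2 fold change of 2.38. *Fli1*, an ETS factor of blood and endothelium, was at 151, 174 and 18.6 CPM in WT, 68.8, 54.9 and 7.0 CPM in HET and 172 and 116 CPM in KO. *Robo4*, an endothelial guidance receptor, had a log2 fold change of 3.06 (SE 0.861) and *Thsd1* 3.35 (SE 1.01). Not all genes of the list moved across the samples: the adhesion gene *Icam2* was at 77.5 to 108 CPM in all of them (log2 fold change 0.09, SE 0.183). Of 12 arterial genes 4 were higher, among them *Cxcr4* (2.42, SE 0.728) and the Notch ligand *Dll4* (2.20, SE 0.787), and of 6 venous and lymphatic genes 1 was, *Ephb4* (3.11, SE 0.987). Of 9 sinusoidal genes none was higher and 1, *Dnase1l3*, lower, with a median of -0.73, which turned to 0.65 without WT3 and HET3. *Clec4g* of this list was at 3.14 (SE 1.48) and did not pass.

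In the angiopoietin pathway of *Tek* and *Tie1*, 6 of 11 genes were higher and 1, *Grb7*, lower at the unadjusted level, with a median of 1.5. The ligand *Angpt1* was itself abundant, at 395, 248 and 20.5 CPM in WT, 106, 68.0 and 6.35 CPM in HET and 251 and 135 CPM in KO, and the adaptor *Dok2* followed (2.23, SE 0.641). Ligand and receptors were thus low in the same samples. Around *Kdr*, 3 of 14 genes of the VEGF pathway were higher, with a median of 0.91. The ligands *Vegfa*, at 20.5 to 30.8 CPM, and *Vegfb*, at 56.2 to 74.7 CPM, had log2 fold changes of 0.09 (SE 0.256) and -0.17 (SE 0.170) and showed no such order. The ligand *Vegfc* did, at 35.9, 28.8 and 3.5 CPM in WT, 11.4, 11 and 0.356 CPM in HET and 25.9 and 21.8 CPM in KO (2.25, SE 0.976), and *Plcg1*, downstream of the receptor, was at 2.04 (SE 0.508).

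In the BMP pathway of *Eng*, 8 of 14 genes were higher and none lower, with a median of 1.02, among them the signal transducer *Smad1* (2.47, SE 0.497) and the target *Id3* (1.95, SE 0.668). Among 12 junction partners of *Cdh5* and *Esam*, 9 were higher and none lower, with a median of 1.95. They included *F11r* (3.02, SE 1.0) and *Jam3* (2.72, SE 0.826), which encode junctional adhesion molecules, and the catenin gene *Ctnnb1* at a smaller 0.65 (SE 0.198). Of 24 genes of the endothelial-to-hematopoietic transition, 14 were higher and 2, *Gfi1b* and *Tal1*, lower, with a median of 1.4. This list also holds *Ptprc*, *Kit*, *Procr*, *Hlf* and *Mecom* of the HSC markers, so that its count is not separate from theirs. *Gfi1b*, a repressor that shuts off endothelial genes in emerging blood cells and acts in erythroid cells, was lower at -1.49 (SE 0.576), with 98.2, 98.0 and 499 CPM in WT, 324, 369 and 573 CPM in HET and 113 and 229 CPM in KO. It was high where the members were low (r = -0.92 with the mean of the members over 8 samples and -0.99 without WT3 and HET3). Over the 8 samples, 1273 of 20610 genes had an r of -0.9 or lower with the members, and *Myb* of this list was at -0.90. The number of such genes without WT3 and HET3 is not given here, and a role of *Gfi1b* in the levels of the members was not tested. *Lmo2*, a cofactor needed for both lineages, was at 614 to 898 CPM throughout (log2 fold change 0.27, SE 0.193). Without WT3 and HET3 the list medians in KO were 1.17 for endothelial identity, 0.87 for arterial genes, 1.17 for venous and lymphatic genes, 0.95 for angiopoietin, 1.12 for VEGF, 0.80 for BMP, 1.09 for junctions and 0.71 for the transition, and fewer genes passed in each of these lists. *Podxl*, *Dnase1l3*, *Grb7* and *Tal1* were named after their values were seen.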

How the data were processed

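RNA-seq counts of 8 sorted LT-HSC samples were analyzed, grouped by the condition given in the labels. The authors deposited raw counts per Ensembl gene, made per their methods from 50-bp reads with Trim Galore 0.6.6, STAR 2.7.8 and GRCm38, keeping uniquely mapped reads, and one further KO sample was discarded by them for its quality. They also deposited log2 values after the variance-stabilizing transformation of DESeq2 1.38.3, corrected for sex, which were used only where named. The cDNA was amplified by PCR without molecular identifiers.

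The 10 genes and all gene lists were chosen with earlier results of these data known. Of 55487 gene IDs, 55141 matched a symbol. Genes with at least 10 reads summed over samples were kept, scaled by TMM and tested in edgeR 4.0.16 by quasi-likelihood (legacy form, limma 3.58.1, R 4.3.3), with sex in the model and Benjamini-Hochberg adjustment. A gene was called at an adjusted p under 0.05 if its log2 fold change exceeded 1 in size. SE is the absolute log2 fold change divided by the square root of F. log2 CPM used a prior count of 2, and single values were compared by exact two-sided permutation tests. DESeq2 1.42.0 with apeglm 1.24.0 was an alternative, and the edgeR test was tried on simulated data. Alternatives added after the data were seen were leaving out WT3 and HET3, levels relative to HSC markers, the sign of each WT and HET pair and the order in the sex-corrected values.

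Every member and Nfkbia is named, and from each list the 4 genes with the highest mean CPM and the 4 with the largest change were eligible, of which examples are given. The genes of the marker lists were chosen for naming after their values were seen. In their deviations from the group means, same-numbered WT and HET samples gave r = 0.29, 0.20 and 0.59 for numbers 1, 2 and 3. The highest was that of WT3 with HET3, which stood apart from the other samples. No r was taken between samples of different number, so these values do not show that the number marks a pair. It was used to set WT and HET samples side by side and as the replicate block. KO1 gave r = 0.28 with WT1 and 0.24 with HET1, but KO2 gave -0.35 with WT2 and -0.12 with HET2, and KO was not set in pairs outside the replicate block. Replicate pairs differed by a chi-square of 18.9 to 261 per gene, and no sample was a repeat of another. Which samples came from one litter is not stated per sample in the sources used here. Gene coordinates (1-based) come from the GENCODE M21 annotation of GRCm38.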

Additional observations from a re-analysis of the deposited data

How the results depend on the processing

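The fitted log2 fold changes of the 6 abundant members in KO against WT/HET were above 0 in every alternative fit that was run for them (*Tie1* was left out by the filter of 10 reads in every sample), but not all differences relative to the HSC markers were, and the number past a threshold varied. In that comparison, where 0 members were called and 6 passed at an unadjusted p under 0.05, DESeq2 called 3 with and 3 without apeglm, and keeping all genes regardless of counts called 4. At the unadjusted level, 3 members passed without both WT3 and HET3, 2 with WT alone as the reference, 0 without the sex term and 0 with the replicate block. The median log2 fold change was 0.71 without the sex term and 0.33 after the shrinkage of apeglm, and *Cdh5* was at -0.11 without the sex term. Leaving out each sample in turn gave 0 to 5 called members, with 5 only without HET2, 3 to 7 at the unadjusted level and -5.87 to 2.31 for *Sox17*, which was higher without HET2.

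For HET against WT, 0 members passed at the unadjusted level. This became 1 with the edgeR version 4 form, 1 with library size only, 1 without the sex term, 3 without the filter on low counts and 7 with the replicate block, under which no member was called. Without both WT3 and HET3 the median log2 fold change was -1.85, with HET1 alone set in effect against WT1 and WT2. Leaving out each sample gave 0 to 4 called, with 4 only without HET2, 0 to 9 at the unadjusted level, and a median of -2.05 (without HET2) to 1.12 (without HET1). For male against female, DESeq2 called 3 members and the fit without a filter 6, and at the unadjusted level 0 passed with the replicate block, 3 without both WT3 and HET3 and 3 in the 6 WT and HET samples. Leaving out each sample gave 0 to 7 called, with 7 without HET2 and 3 without HET1, and 3 to 8 at the unadjusted level.

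Over all genes, the number called in KO against WT/HET was 0, 1 with the edgeR version 4 form, 1825 with DESeq2, 1463 with apeglm, 1106 without the filter and 730 without HET2. For HET against WT it was 0, 64 with DESeq2, 131 without the filter, 1967 without both WT3 and HET3 and 135 without HET2. For male against female it was 4, 7 with the edgeR version 4 form, 2988 with DESeq2, 2255 without the filter, 0 with at least 10 reads in every sample, 0 with the replicate block, 3070 without HET1 and 1325 without HET2. Scaling by library size only moved the median of all genes by 0.28 in KO against WT/HET, by -0.10 in HET against WT and by 0.27 in male against female, with 9 of the 10 members above 0 in KO under each scaling. The cause of these differences was not tested.

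Relative to the HSC markers, the KO difference was -0.58 for *Eng*, and that of *Sox18* was -0.03 with a prior count of 0.5, -0.10 without *Kit* among the markers and -0.05 without WT3 and HET3, where *Esam* was at 0.00 and *Eng* at 0.12. The median correlations kept their order under the other prior count and with the male-female difference removed, and the alternative with the 5 female samples only was not run, since correlations are given here only over at least 6 samples. With the filter of 10 reads in every sample, 5 of the 10 members were left. At this depth the fitted values given for *Sox7* and *Sox17* rest on too few reads to compare the groups.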
